A study of Mus musculus with 4 samples.

Results

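The 38 genes described here encode the proteins that bring glucose into a muscle cell, break it down to pyruvate and lactate, and store or release it as glycogen. They were taken by name: every probe that is not a control and whose gene name in the array files is one of the 38 was used. This gave 58 of 39429 probes and 38 of 31896 gene names. Of the 38 genes, 37 were well above background on all 4 arrays by the scanner's own mark, as were 18113 of all gene names. Fbp2, the muscle fructose bisphosphatase, was above background on no array and is given no fold. In the array files Pkm2 is the gene now named Pkm, and Pgm2 is the gene now named Pgm1.

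Mouse 3D engineered muscle, which is skeletal muscle tissue built in culture, was measured with and without EPS (spelled electrical plus stimulation in the labels and read here as electrical pulse stimulation), a current that makes cultured muscle contract. The 4 groups were tissue 5 h after 30 min of acute EPS, tissue at 5 h with no EPS, tissue at 0 min after 30 min of acute EPS, and tissue at 0 min with no EPS, with unstimulated tissue as the negative control. Each group was 1 single-colour array of total RNA, so no difference below has an error between tissues and none was tested. The labels used here do not give the cells the tissue was built from, their genotype, the pulse settings or how many tissues made up a sample.

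One label, the protocol for dye labelling, speaks of leukocyte RNA, while sample titles, tissue entries and the extraction step speak of engineered muscle. All 20 skeletal muscle markers looked at were well above background on all 4 arrays, as were 4 of 8 leukocyte markers (Itgam, Csf1r, Cd3e and Cd68) and all 4 liver markers (Alb, Apoa1, Ttr and Serpina1a). The leukocyte markers Ptprc and Lyz2 were above background on none, and the markers do not settle the leukocyte label. The 4 arrays lay on 1 slide with 43020 spots each that are not controls, none of them saturated. The 75th percentile of the signal was 1492 (EPS, 5 h), 1280 (no EPS, 5 h), 1093 (EPS, 0 min) and 1363 (no EPS, 0 min), and a level here is the log2 of a probe's signal minus that percentile of its array. The spot error came from 268 measured probes printed 10 times: the SD of a log2 difference between single spots had a median of 0.08 in either EPS comparison and a 95th percentile of 0.29 at 5 h and 0.24 at 0 min. It covers spots of 1 labelled RNA, and the number of arrays limits the precision.

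Muscle takes up glucose through carriers in the plasma membrane, and contraction and insulin bring the carrier encoded by Slc2a4 from internal vesicles to the surface. Hexokinase traps the sugar as glucose 6-phosphate, which either enters glycolysis, with phosphofructokinase as its main control point, or is stored as glycogen. During contraction glycogen phosphorylase releases stored glucose units, and fast glycolysis yields lactate that leaves through monocarboxylate carriers. Many glycolytic genes are known targets of the hypoxia-inducible factor HIF-1, which binds a core of ACGTG or GCGTG, and of factors such as Myc that bind the E-box CACGTG.

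The title of the series concerns hypoxia, so the starts of the genes were searched for these letters. The RefSeq promoter table (build GRCm38.p6) held 52 windows of 300 bases for 36 of the 38 genes, all but Slc2a3 and Slc2a4. ACGTG or GCGTG, on either strand, was in a window of 29 of the 36 genes (80.6%), against 65.1% of 10867 measured genes and 46.7% of 27025 genes in the table. CACGTG, which contains ACGTG, was in 6 of the 36 (16.7%), against 11.5% of measured genes and 8.09% of the table. A gene was counted if any of its windows held a match, so genes with several windows had more places to match. By window, the shares for ACGTG or GCGTG were 71.2% (set), 59.5% (measured genes) and 43.8% (table). For CACGTG they were 11.5%, 9.72% and 7.15%. A match is a run of letters and not a bound site. The 250 bases before the start are printed for 5 genes whose values are described in turn below, to show a window with 2 CACGTG matches (Ldha), windows with single or paired cores (Slc2a1, Pfkl, Pygl) and one with none (Eno2); each reads 5′ to 3′ on the gene's strand, and capitals mark the matches on either strand. They lie at chr4:119108495-119108744 (Slc2a1, plus strand), chr10:78009808-78010057 (Pfkl, minus strand), chr7:46845554-46845803 (Ldha, plus strand, the first of its windows), chr6:124769674-124769923 (Eno2, minus strand) and chr12:70227684-70227933 (Pygl, minus strand).
Slc2a1: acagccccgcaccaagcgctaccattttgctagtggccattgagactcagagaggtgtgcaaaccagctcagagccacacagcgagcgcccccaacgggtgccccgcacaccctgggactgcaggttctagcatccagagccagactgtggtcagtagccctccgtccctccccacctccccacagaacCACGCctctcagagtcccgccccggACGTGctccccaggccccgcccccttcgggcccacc
Pfkl: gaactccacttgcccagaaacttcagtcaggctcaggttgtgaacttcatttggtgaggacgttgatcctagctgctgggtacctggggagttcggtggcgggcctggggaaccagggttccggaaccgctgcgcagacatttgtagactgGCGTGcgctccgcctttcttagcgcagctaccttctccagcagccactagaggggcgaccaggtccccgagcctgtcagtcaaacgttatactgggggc
Ldha: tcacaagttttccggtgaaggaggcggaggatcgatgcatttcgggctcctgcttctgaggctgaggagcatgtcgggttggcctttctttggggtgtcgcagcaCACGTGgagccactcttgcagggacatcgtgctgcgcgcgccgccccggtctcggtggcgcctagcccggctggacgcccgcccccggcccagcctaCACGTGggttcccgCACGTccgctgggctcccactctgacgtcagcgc
Eno2: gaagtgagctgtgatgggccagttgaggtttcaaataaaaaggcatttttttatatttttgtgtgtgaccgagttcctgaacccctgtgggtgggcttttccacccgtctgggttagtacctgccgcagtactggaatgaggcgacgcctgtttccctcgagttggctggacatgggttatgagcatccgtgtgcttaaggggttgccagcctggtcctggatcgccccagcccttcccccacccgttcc
Pygl: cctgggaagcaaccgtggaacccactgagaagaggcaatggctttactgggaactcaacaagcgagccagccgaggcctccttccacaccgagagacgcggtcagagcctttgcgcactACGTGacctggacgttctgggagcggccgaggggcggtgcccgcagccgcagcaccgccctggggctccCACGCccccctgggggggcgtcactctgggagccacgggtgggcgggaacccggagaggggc

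With EPS, most of the 37 measured genes were slightly lower than in unstimulated tissue at 5 h and slightly higher at 0 min. The differences were small: the median was -0.17 on the log2 scale at 5 h and 0.17 at 0 min, against -0.04 and 0.02 over all 18113 measured genes. These signs hold after scaling to the 75th percentile of each array. That percentile was higher with EPS at 5 h (1492 against 1280) and lower with EPS at 0 min (1093 against 1363). On the log2 scale those gaps were larger than the set's medians, so the medians before scaling have the opposite signs. At 5 h, 29 of the 37 were below 0, where 56.7% of all genes were. At 0 min, 29 of the 37 were above 0, where 55.0% of all genes were; under quantile normalization 20 were above 0, the median was 0.047, and Pfkm, Gapdh, Pgk1, Pgam1, Eno3, Pkm2, Ldha and Pygm were below 0. Against a bar set by the noisier probes, most single genes did not stand out. At 5 h, 8 of 37 were lower by more than the 95th percentile of the spot error (13.7% of all genes) and 1 was higher (1303 of 18113 genes). At 0 min, 11 of 37 were higher by more than it (11.8% of all genes) and 2 were lower (2359 of 18113 genes). The median spot SD of 0.08 is smaller than most of the differences, so this bar is strict for a probe with little spot error. These EPS comparisons share no array.

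Few genes of the set reached 1.5-fold. At 5 h none was that much higher (1.79% of all genes were) and 2 were that much lower, Slc2a3 and Eno2 (2.85% of all genes). At 0 min Aldoc was that much higher (1.87% of all genes) and Slc2a3 that much lower (3.11% of all genes); under normexp background correction neither reached 1.5-fold at 0 min, and under quantile normalization Aldoc did not. No gene of the set reached 2-fold with EPS at 5 h (0.536% of all genes were that much higher and 0.469% lower) or at 0 min (0.464% higher and 0.668% lower). Whether fewer cells of a type or less RNA per cell lies behind a lower level cannot be told apart in bulk tissue.

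After scaling, the direction turned between the times more often than it did over all genes. Of the 37 genes, 22 (59.5%) were lower with EPS at 5 h and higher with EPS at 0 min, against 26.5% of all genes. Another 7 were higher at both times (28.5% of all genes; 6 with the mean of probes), 7 were lower at both (30.3%), and Pfkfb1 alone was higher at 5 h and lower at 0 min (14.8%). Under quantile normalization, which gives the 4 arrays the same distribution, the first number was 14 of 37, against 19.8% of all genes. The stimulated 5 h array held the lowest level of 22 of the 37 genes (38.7% of all genes), and the stimulated 0 min array the highest level of 24 (29.6% of all genes). Under quantile normalization these numbers were 19 and 16.

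**Figure D1:**
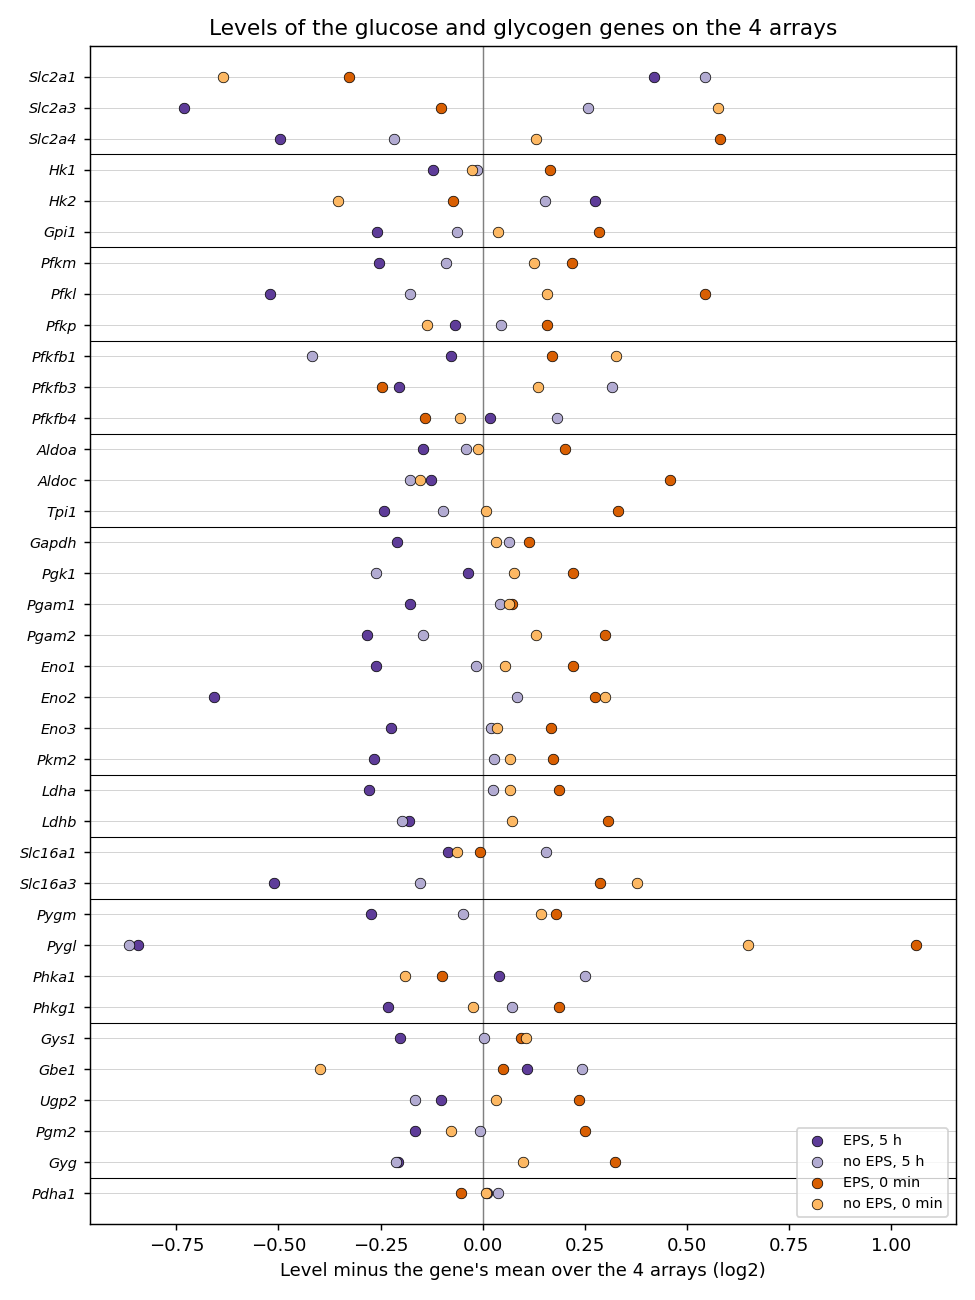
Level of each of the 37 measured genes on the 4 arrays, as the log2 level minus the gene's mean over the 4 arrays, with 1 point per array and lines between genes of different roles. Dark purple points (EPS, 5 h) are the lowest of the row for 22 genes and dark orange points (EPS, 0 min) the highest for 24.

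Part of this pattern was shared by bright genes in general. Of the 182 genes in the brightest 1% of signal, 96.2% were below 0 with EPS at 5 h and 98.9% were above 0 with EPS at 0 min, with medians of -0.17 and 0.19. Aldoa, Gapdh, Eno3 and Ldha lie in that band, and their medians were -0.26 and 0.13. Another 7 genes (Gpi1, Pfkm, Tpi1, Pgk1, Pgam1, Eno1 and Pkm2) lie between the 95th and 99th percentiles, where their medians of -0.20 at 5 h and 0.14 at 0 min stood beside -0.11 and 0.14 for all 724 genes of the band. The part that brightness plays in the result was not tested, and the bands were drawn after the values had been seen.

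The EPS difference at 5 h minus that at 0 min separated the genes of the set from others of like signal in the dimmer bands. Over all 37 genes its median was -0.31, against -0.04 over all genes, and 34 of 37 were below 0 (58.1% of all genes). These signs hold after scaling to each array's 75th percentile, and before scaling the set's median has the opposite sign. The scaling moves every gene by the same amount, so the gap between the set and all genes does not depend on it. Under quantile normalization the median was -0.20, with 32 below 0. In the brightest 1% the median was -0.37 for the 4 genes and -0.38 for all, and between the 95th and 99th percentiles it was -0.40 for 7 genes and -0.25 for all. Between the 90th and 95th percentiles it was -0.37 for 4 genes and -0.13 for all. Between the 75th and 90th it was -0.26 for 9 genes and -0.06 for all, between the 50th and 75th it was -0.30 for 7 genes and -0.01 for all, and below the median signal it was -0.35 for 6 genes and -0.01 for all. The gap between the set and all genes was therefore absent in the brightest band and present in each of the other 5; it was not tested. Slc2a4, Pfkl and Eno2 were past 1.5-fold in this difference of effects (4.01% of all genes), none was past it upward (3.37%), and 14 of 37 were lower by more than the spot error of 0.39 (9.39% of all genes).

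**Figure D2:**
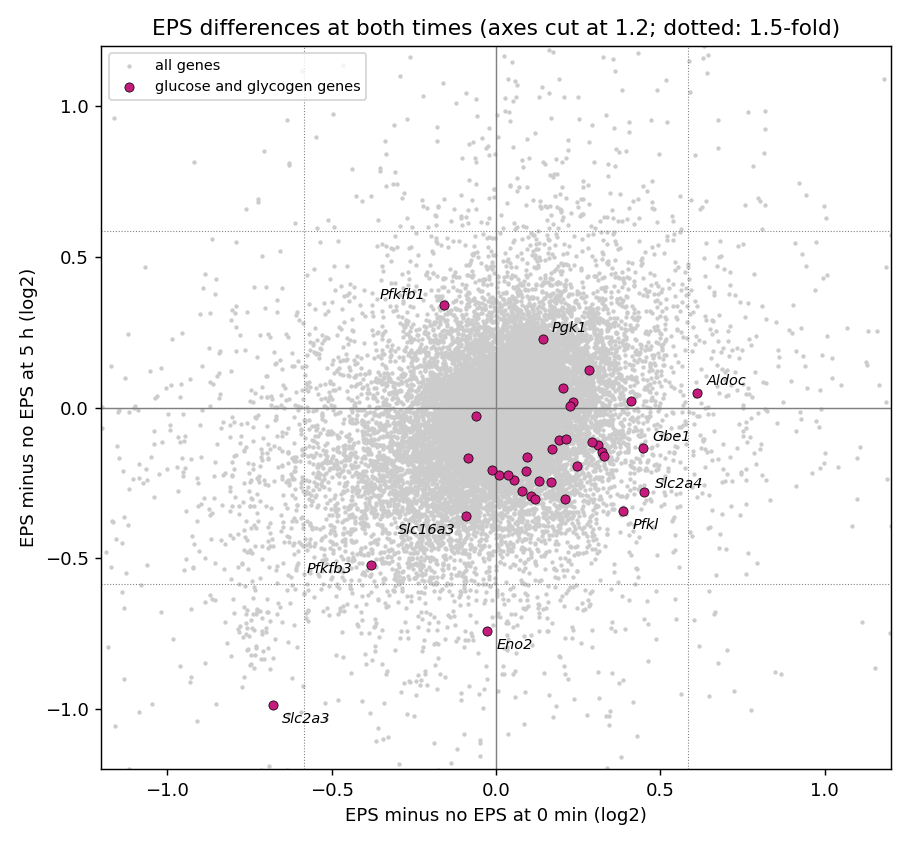
EPS minus no EPS on the log2 scale at 0 min (horizontal) and at 5 h (vertical) for all 18113 measured genes in grey and the 37 genes of the set in pink, with axes ending at 1.2 and dotted lines at 1.5-fold. The lower right part holds 22 of the 37 pink points, Slc2a3 lies far to the lower left and Pfkfb1 is alone in the upper left.

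Of the glucose carriers, Slc2a4 and Slc2a1 were lower with EPS at 5 h and higher with EPS at 0 min, while Slc2a3 was lower with EPS at both times. Slc2a4, which encodes GLUT4, the carrier of muscle and fat that insulin and contraction bring to the surface, was read by 1 probe printed 10 times (chromosome 11, 69756073 to 69756132, build mm9). Its level was -1.27 ± 0.08 (EPS, 5 h), -0.99 ± 0.07 (no EPS, 5 h), -0.19 ± 0.04 (EPS, 0 min) and -0.64 ± 0.05 (no EPS, 0 min; SD of 10 spots each). The stimulated array was thus the lower one at 5 h and the higher one at 0 min, and the spots of the arrays compared did not mix. The difference was -0.28 with a spot SE of 0.03 at 5 h, or 1.21-fold lower, and 0.45 with a spot SE of 0.02 at 0 min, or 1.37-fold higher. The 5 h difference minus the 0 min difference was -0.73 with a spot SE of 0.04, and it lay between -0.73 and -0.68 under the normexp and quantile settings and the main one.

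**Figure D3:**
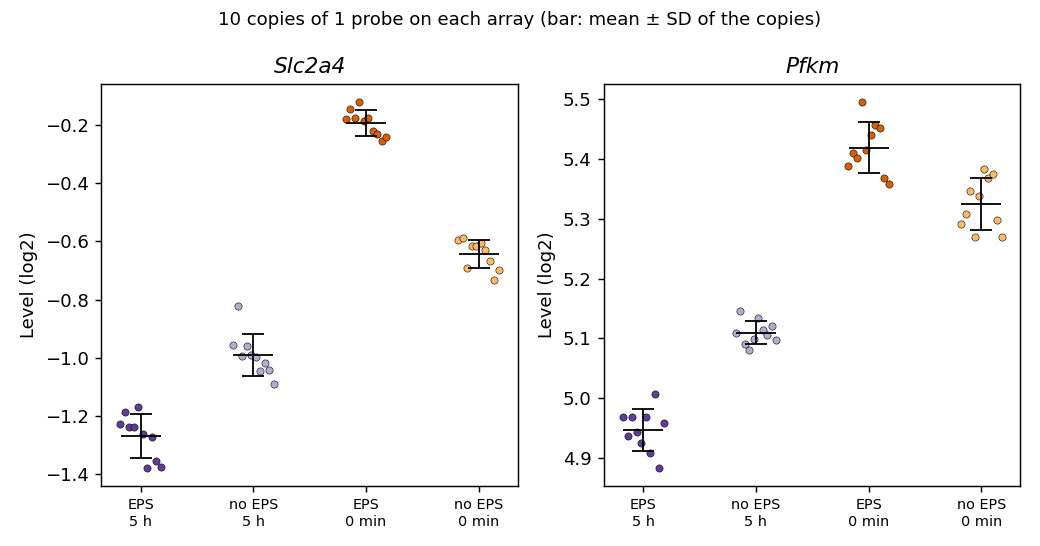
Log2 level of each of the 10 spots of the Slc2a4 probe and of the Pfkm probe on the 4 arrays, with bars for the mean and SD of the spots. For Slc2a4 the stimulated array is the lower one at 5 h and the higher one at 0 min by several spot SDs; for Pfkm the gaps are smaller, and at 0 min the spots of the arrays overlap.

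Slc2a1, which encodes the basal carrier GLUT1 (chromosome 4, 118809864 to 118809923, mm9), had levels of 4.29 (EPS, 5 h), 4.42 (no EPS, 5 h), 3.55 (EPS, 0 min) and 3.24 (no EPS, 0 min). Both 5 h arrays were high, and the EPS differences of -0.13 at 5 h and 0.31 at 0 min were small beside that. Slc2a3, which encodes the high-affinity carrier GLUT3 best known from neurons (chromosome 6, 122678075 to 122678134), had levels of -3.17 (EPS, 5 h), -2.18 (no EPS, 5 h), -2.54 (EPS, 0 min) and -1.86 (no EPS, 0 min). Both stimulated arrays were lower than the unstimulated array of their time, by 1.98-fold at 5 h and 1.60-fold at 0 min. Its probe was dim, with signals of 165.9, 282.2, 187.7 and 374.4 in the same order, and under normexp its differences were -0.72 at 5 h and -0.49 at 0 min. The neuron and Schwann cell markers held 4 measured genes of 8, with medians of -0.24 at 5 h and -0.20 at 0 min and summed signals before scaling of 2009 (EPS, 5 h), 2014 (no EPS, 5 h), 1415 (EPS, 0 min) and 1963 (no EPS, 0 min); Rbfox3 was not above background on any array. Their part in the Slc2a3 values was not tested.

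Hexokinases and phosphoglucose isomerase, the entry steps of glycolysis, were all higher with EPS at 0 min, under normexp and quantile normalization too. Hk1, the hexokinase found in most tissues, had levels of 2.82 (EPS, 5 h), 2.93 (no EPS, 5 h), 3.11 (EPS, 0 min) and 2.92 (no EPS, 0 min), with the stimulated 0 min array above the other three. Hk2, the hexokinase typical of insulin-sensitive muscle, had levels of 2.74 (EPS, 5 h), 2.62 (no EPS, 5 h), 2.39 (EPS, 0 min) and 2.11 (no EPS, 0 min). It was among the 7 genes higher with EPS at both times, by 0.12 at 5 h, which is within the spot error, and by 0.28 at 0 min. Gpi1, the isomerase that makes fructose 6-phosphate, was read by 3 probes. Their differences lay between -0.23 and -0.17 at 5 h and between 0.25 and 0.34 at 0 min. These probes start at 34987173, 34987174 and 34987178 on chromosome 7 and so read nearly the same bases, and they are not independent readings.

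Phosphofructokinase commits the sugar to glycolysis, and the mRNAs of all 3 of its subunits were lower with EPS at 5 h (medians: -0.16 at 5 h and 0.29 at 0 min). Pfkl, the liver-type subunit (chromosome 10, 77450926 to 77450985), had levels of -0.01 (EPS, 5 h), 0.33 (no EPS, 5 h), 1.05 (EPS, 0 min) and 0.67 (no EPS, 0 min). The stimulated arrays held both its lowest and its highest level, with differences of -0.34 at 5 h and 0.39 at 0 min. Pfkm, the muscle-type subunit (chromosome 15, 97962713 to 97962772), moved less: its 10 spots gave 4.95 ± 0.04 (EPS, 5 h), 5.11 ± 0.02 (no EPS, 5 h), 5.42 ± 0.04 (EPS, 0 min) and 5.32 ± 0.04 (no EPS, 0 min; SD of spots). Its EPS difference of -0.16 at 5 h kept its sign under quantile normalization, whereas the 0.09 at 0 min became -0.03. Pfkp, the platelet-type subunit, differed by -0.11 at 5 h and 0.29 at 0 min.

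The bifunctional enzymes that set fructose 2,6-bisphosphate, the activator of phosphofructokinase, went another way: all 3 were lower with EPS at 0 min, with differences from -0.38 to -0.09. Pfkfb3, the inducible form with high kinase activity, differed by -0.52 at 5 h and -0.38 at 0 min, with levels of 0.09 (EPS, 5 h), 0.62 (no EPS, 5 h), 0.05 (EPS, 0 min) and 0.43 (no EPS, 0 min). Both stimulated arrays lay below both unstimulated ones. A second, dim Pfkfb3 probe differed by -0.10 and -0.06, so the probes differ in size. Pfkfb4, the form first found in testis, had small differences of -0.17 at 5 h and -0.09 at 0 min. Pfkfb1, the liver and muscle form, was dim and the only gene of the set higher at 5 h (0.34) and lower at 0 min (-0.16).

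Aldolase splits the 6-carbon sugar, and triose phosphate isomerase makes its products interchangeable. Aldoc, the brain-type aldolase (chromosome 11, 78140198 to 78140257), had levels of 0.41 (EPS, 5 h), 0.36 (no EPS, 5 h), 0.99 (EPS, 0 min) and 0.38 (no EPS, 0 min). Only the stimulated 0 min array stood out, 1.53-fold above its control, with a difference of 0.61 that was 0.54 under normexp and 0.58 under quantile normalization. Aldoa, the muscle-type aldolase, had levels of 8.30 (EPS, 5 h), 8.40 (no EPS, 5 h), 8.64 (EPS, 0 min) and 8.43 (no EPS, 0 min). Its signal before scaling was 468917, 432756, 437063 and 470273 in the same order, so the unscaled signal ran the other way at both times. Under quantile normalization, which gives equal ranks equal values, its difference was 0.00 in both. That value shows only that the rank of this very bright probe was the same, and it cannot tell whether its level changed. Tpi1 differed by -0.15 at 5 h and 0.32 at 0 min and kept both signs under normexp and quantile normalization.

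The 8 genes of lower glycolysis, from glyceraldehyde 3-phosphate to pyruvate, were lower with EPS at 5 h in 7 of 8 cases (56.7% of all genes) under the main, normexp and quantile settings. The median was -0.25, and -0.12 under quantile normalization. At 0 min 7 of 8 were above 0 (median: 0.12; 55.0% of all genes), but only 2 of 8 under quantile normalization (median: -0.05). Gapdh and Eno3 lie in the brightest 1%, where 96.2% of genes were below 0 at 5 h and 98.9% above 0 at 0 min. Pgk1, Pgam1, Eno1 and Pkm2 lie between the 95th and 99th percentiles, where these shares were 83.0% and 93.0%. Gapdh, glyceraldehyde 3-phosphate dehydrogenase and a common reference gene, had levels of 7.47 (EPS, 5 h), 7.75 (no EPS, 5 h), 7.80 (EPS, 0 min) and 7.72 (no EPS, 0 min), lowest on the stimulated 5 h array. Its 7 probes spread from -0.30 to 0.14 at 5 h and from 0.05 to 0.31 at 0 min, and the array design places 1 of them on chromosome 8 and the others on chromosome 6. That spread between probes of 1 gene is as wide as most differences of the set.

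Pgk1, phosphoglycerate kinase, the first ATP-yielding step, was the exception at 5 h, with levels of 6.32 (EPS, 5 h), 6.09 (no EPS, 5 h), 6.58 (EPS, 0 min) and 6.43 (no EPS, 0 min). It was higher with EPS at both times, by 0.23 at 5 h and 0.14 at 0 min, though the 0 min value was -0.01 under quantile normalization. Pgam1 and Pgam2, the brain-type and muscle-type phosphoglycerate mutases, differed by -0.22 and -0.14 at 5 h and by 0.01 and 0.17 at 0 min. Pkm2, pyruvate kinase, differed by -0.29 at 5 h and 0.11 at 0 min.

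Eno2 stood apart from the other enolases. Eno2, the neuron-type enolase (chromosome 6, 124710388 to 124710447), had levels of 1.62 (EPS, 5 h), 2.36 (no EPS, 5 h), 2.55 (EPS, 0 min) and 2.58 (no EPS, 0 min). The stimulated 5 h array alone was low, 1.67-fold below its control, and the 0 min arrays differed by -0.03. Eno3, the muscle-type enolase, had levels of 6.64 (EPS, 5 h), 6.88 (no EPS, 5 h), 7.03 (EPS, 0 min) and 6.90 (no EPS, 0 min), a difference of -0.24 at 5 h and 0.13 at 0 min. Eno1, the widespread form, differed by -0.25 and 0.17. The Eno2 difference at 5 h was -0.70 under normexp and -0.75 under quantile normalization, whereas that of Eno3 shrank to -0.09 under quantile normalization.

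Lactate dehydrogenase turns pyruvate into lactate, which leaves the cell through the carriers encoded by Slc16a3 and Slc16a1. Ldha, the muscle-type subunit, whose printed window holds the CACGTG matches, had levels of 6.76 (EPS, 5 h), 7.06 (no EPS, 5 h), 7.22 (EPS, 0 min) and 7.10 (no EPS, 0 min), lowest on the stimulated 5 h array. Its 3 probes spread from -0.30 to -0.18 at 5 h and from 0.03 to 0.12 at 0 min. Ldhb, the heart-type subunit, differed by 0.02 at 5 h and 0.23 at 0 min. Slc16a3, the exporter MCT4 of glycolytic muscle, had levels of 1.63 (EPS, 5 h), 1.98 (no EPS, 5 h), 2.42 (EPS, 0 min) and 2.51 (no EPS, 0 min). Its EPS difference was -0.36 at 5 h and -0.09 at 0 min. Both its probes went the same way, but they start at 120820023 and 120820030 and so share most of their bases. Slc16a1, the carrier MCT1 of oxidative fibres, was dim and differed by -0.24 and 0.06.

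**Figure D4:**
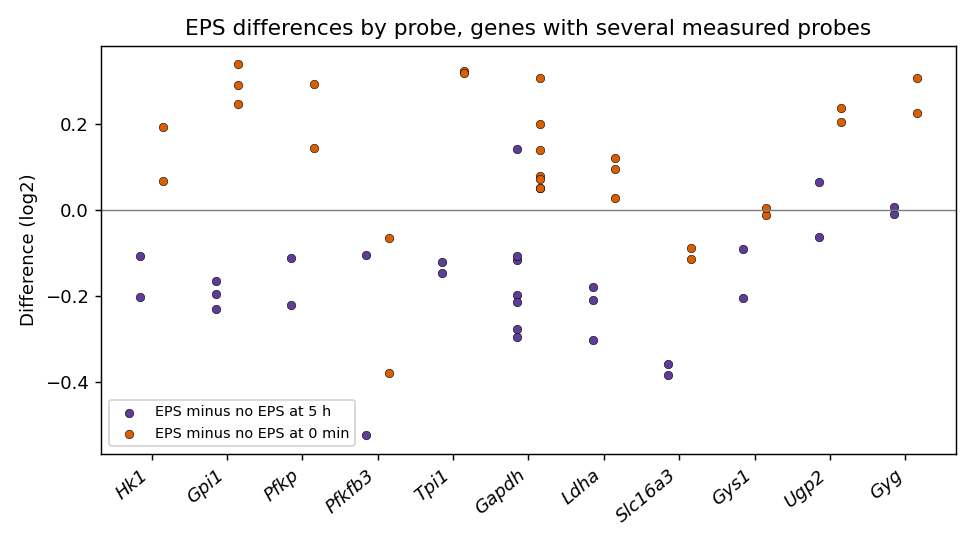
EPS minus no EPS on the log2 scale for every measured probe of the genes with several measured probes, with purple points for 5 h and orange points for 0 min. For Gpi1, Tpi1 and Ldha the points of the times do not overlap, though the Gpi1 probes read nearly the same bases. The 7 Gapdh probes spread widely and the 2 Pfkfb3 probes differ in size.

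Of the genes of glycogen breakdown, Pygm, the muscle glycogen phosphorylase, had levels of 2.95 (EPS, 5 h), 3.18 (no EPS, 5 h), 3.40 (EPS, 0 min) and 3.37 (no EPS, 0 min). It was lowest on the stimulated 5 h array, with a difference of -0.23 at 5 h and 0.04 at 0 min. Phka1 and Phkg1, the muscle regulatory and catalytic subunits of the kinase that activates phosphorylase, differed by -0.21 and -0.30 at 5 h and by 0.09 and 0.21 at 0 min. Pygl, the liver phosphorylase, differed by 0.02 at 5 h and 0.41 at 0 min. All 4 genes had a lower EPS difference at 5 h than at 0 min (58.1% of all genes), from -0.51 to -0.26, and this sign held under normexp and quantile normalization. The -0.51 is that of Phkg1, whose probe was dim, with signals from 41.3 to 44.7. Its other probe was above background on no array.

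Among the genes of glycogen synthesis, Gbe1, the branching enzyme (chromosome 16, 70569840 to 70569899), had levels of 3.12 (EPS, 5 h), 3.25 (no EPS, 5 h), 3.06 (EPS, 0 min) and 2.61 (no EPS, 0 min). The unstimulated 0 min array alone was low, and its 0 min difference of 0.45 was 0.43 under normexp and 0.39 under quantile normalization. Gys1, the muscle glycogen synthase, had levels of 1.86 (EPS, 5 h), 2.06 (no EPS, 5 h), 2.15 (EPS, 0 min) and 2.16 (no EPS, 0 min), with the stimulated 5 h array lowest and no gap at 0 min. Pgm2, a phosphoglucomutase that links glucose 1-phosphate and glucose 6-phosphate, differed by -0.16 at 5 h and 0.33 at 0 min. Ugp2, which makes UDP-glucose, and Gyg, the glycogenin on which a particle starts, differed by 0.06 and 0.01 at 5 h and by 0.20 and 0.23 at 0 min. The sign at 5 h rests on the probe: the other measured probe gave -0.063 for Ugp2 and -0.0092 for Gyg. Pdha1, the subunit of pyruvate dehydrogenase through which pyruvate enters the mitochondrial cycle, was nearly level on the 4 arrays, at 2.23 (EPS, 5 h), 2.26 (no EPS, 5 h), 2.17 (EPS, 0 min) and 2.23 (no EPS, 0 min).

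Between the times, the genes of the set were lower at 5 h than at 0 min after EPS once the arrays were scaled. The 75th percentile was 1492 (EPS, 5 h) and 1093 (EPS, 0 min). On the log2 scale that gap is larger than the set's median after EPS, so before scaling that median is not below 0. The median of 5 h minus 0 min was -0.42 after EPS and -0.04 without EPS, against -0.08 and -0.02 over all genes. After EPS, 30 of 37 were below 0 (57.4% of all genes) and 26 of 37 were lower by more than the spot error of 0.25 (34.2% of all genes). Without EPS, 24 of 37 were below 0 (52.1% of all genes). These comparisons use the same 4 arrays as the EPS comparisons, so they are another reading of the same values. Under quantile normalization the medians were -0.29 after EPS and -0.12 without EPS, and in the brightest 1% of signal the median of all genes was -0.31 after EPS.

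After EPS, 7 genes were at least 1.5-fold lower at 5 h than at 0 min, where 12.4% of all genes were: Slc2a3, Slc2a4, Pfkl, Aldoc, Eno2, Slc16a3 and Pygl. Of these, Slc2a4 and Pfkl reached 2.11-fold and 2.09-fold and Pygl 3.75-fold (at least 2-fold lower: 3 of 37, against 3.58% of all genes), while Slc2a3 and Aldoc were under 1.5-fold with normexp and Slc2a3 also under quantile normalization; median centring added Pgam2. All 8 genes of lower glycolysis were below 0 after EPS in the scaled levels, with Gapdh above 0 under quantile normalization. Before scaling, the signals of Gapdh, Pgk1, Pgam1, Eno3 and Pkm2 were higher at 5 h after EPS, and those of Pgam2, Eno1 and Eno2 were lower. Slc2a1 was the only gene of the set that was 1.5-fold higher after EPS (7.83% of all genes).

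Slc2a1 and Pygl had differences between the times in both kinds of tissue. Slc2a1 was 1.68-fold higher at 5 h after EPS and 2.27-fold higher without EPS (at least 2-fold higher: 1.66% of all genes), and in unstimulated tissue it stood 201st from the top of 18113 genes. Pygl (chromosome 12, 71291855 to 71291914) had levels of -3.78 (EPS, 5 h), -3.80 (no EPS, 5 h), -1.87 (EPS, 0 min) and -2.29 (no EPS, 0 min). Its probe was dim, with signals of 108.6, 91.9, 298.2 and 279.5 in the same order. Both 5 h arrays were far below both 0 min arrays, 3.75-fold lower after EPS and 2.86-fold lower without EPS (at least 2-fold lower: 2.77% of all genes). Without EPS, Slc2a1 and Gbe1 were at least 1.5-fold higher at 5 h (6.54% of all genes), Gbe1 not under quantile normalization, and Pygl and Pfkfb1 at least 1.5-fold lower (9.04% of all genes), Pfkfb1 not under normexp, and quantile normalization added Slc16a3.

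**Figure D5:**
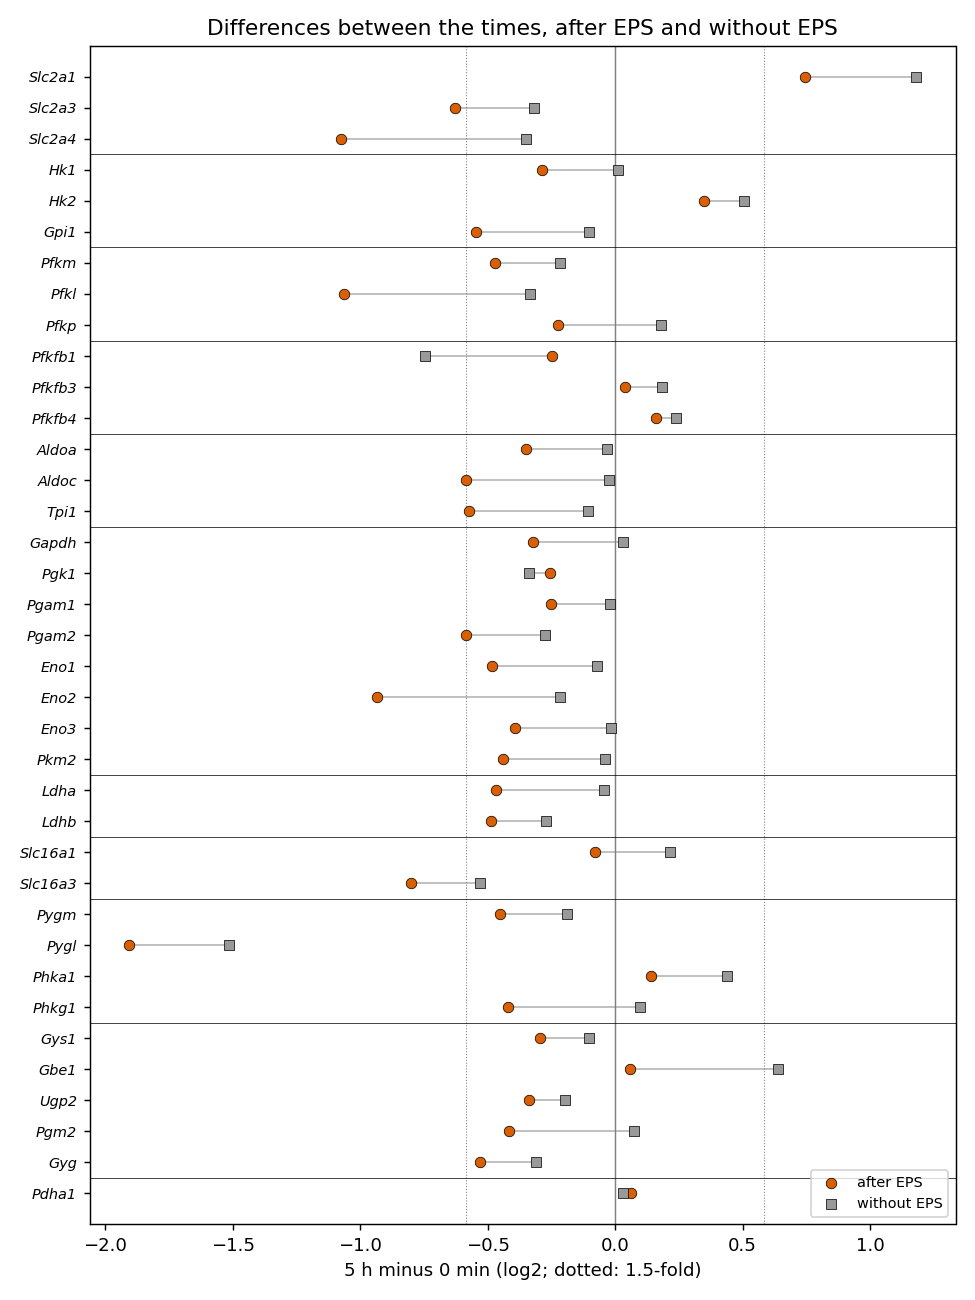
Log2 level at 5 h minus that at 0 min for the 37 measured genes, with circles for tissue after EPS and squares for tissue without EPS and dotted lines at 1.5-fold. The circle lies left of the square for 34 of the 37 genes; Slc2a1 is far right and Pygl far left in both kinds of tissue.

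Other genes of glucose metabolism came from 5 lists of the steps around these. The difference of EPS effects had medians from -0.22 to -0.07 in these lists, against -0.31 in the set, but single comparisons were as large in some of them. The 13 measured of 19 other glycolysis and lactate genes had EPS medians of -0.0022 at 5 h and 0.04 at 0 min. Of the 13, 1 was at least 1.5-fold higher at 5 h (1.79% of all genes): Gpd2, the mitochondrial glycerol phosphate dehydrogenase. Its levels were 0.76 (EPS, 5 h), -0.11 (no EPS, 5 h), -0.64 (EPS, 0 min) and -0.70 (no EPS, 0 min). The 16 measured of 18 other glycogen genes had medians of -0.10 and -0.05, and their median of 5 h minus 0 min after EPS was -0.41, close to the set's -0.42. Ppp1r3c, which targets protein phosphatase 1 to glycogen, was the only one at least 1.5-fold lower at 5 h (2.85% of all genes). Its levels were -2.55 (EPS, 5 h), -1.81 (no EPS, 5 h), -0.59 (EPS, 0 min) and -0.95 (no EPS, 0 min). Stbd1, a glycogen-binding protein of vesicles, differed by -0.03 at 5 h and 0.52 at 0 min.

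None of the 12 measured genes of the pyruvate dehydrogenase list was past 1.5-fold with EPS, and Pdk4, the kinase that switches the complex off, was higher by 0.29 at 5 h and 0.32 at 0 min. None of the 13 measured pentose phosphate and gluconeogenesis genes was either, though their EPS median of -0.17 at 5 h equalled that of the set to 2 decimals (0.10 at 0 min). G6pdx and Pgd, the dehydrogenases that make NADPH, were higher at 5 h than at 0 min by 1.39 and 1.70 after EPS and by 1.52 and 1.94 without EPS. With EPS they differed by -0.36 and -0.37 at 5 h and -0.23 and -0.14 at 0 min. Rpia and Pck2 of the same list were higher with EPS, by 0.25 and 0.40 at 5 h and 0.47 and 0.12 at 0 min. None of the 20 regulators was past 1.5-fold with EPS. Of all genes, 1.79% were that much higher and 2.85% lower at 5 h, and 1.87% and 3.11% at 0 min. At such shares, finding none in lists this short does not set them apart from all genes. Myc, a transcription factor that binds the E-box, was higher with EPS by 0.45 at 5 h and 0.57 at 0 min, and Ppargc1a, a coactivator of oxidative genes, differed by -0.51 and -0.53.

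Markers of cell types moved as follows beside the set. The 20 skeletal muscle markers had EPS medians of -0.08 at 5 h and 0.12 at 0 min, the same signs as the set. Of these markers 0 of 20 were past 1.5-fold (all genes: 1.79% higher and 2.85% lower at 5 h, 1.87% and 3.11% at 0 min). Their summed signals before scaling, which ran the other way at both times, were 1590190 (EPS, 5 h), 1448740 (no EPS, 5 h), 1543350 (EPS, 0 min) and 1674840 (no EPS, 0 min); the sums of the other lists are unscaled too. Of 10 fibroblast markers 9 were measured, with Thy1 not above background on any array, medians of -0.31 at 5 h and -0.05 at 0 min and summed signals of 377324, 377984, 387254 and 440891 in the same order. Of 7 adipocyte markers 2 were measured, Fabp4 with EPS differences of 0.22 at 5 h and 0.70 at 0 min and Pparg with 0.01 and 0.28, while Adipoq, Lep, Cfd and Cidec were not above background on any array. Of 7 endothelial markers 3 were measured, Kdr with -0.63 at 5 h and 0.13 at 0 min, Pecam1 with -0.24 and -0.15 and Vwf with 0.29 and 0.17, while Cdh5, Tek, Tie1 and Emcn were not above background on any array. The 4 liver markers had medians of 0.08 at 5 h and -0.01 at 0 min. Of 8 leukocyte markers 4 were measured, with medians of -0.15 at both times and summed signals of 9564, 9232, 8335 and 11420 in that order. Cd68, at low levels from -5.53 to -3.69, differed by 0.64 at 5 h and -1.33 at 0 min. Csf1r differed by -0.13 and 0.02, Itgam by -0.17 and -0.14 and Cd3e by -0.32 and -0.17. The difference of EPS effects had medians of -0.26 (fibroblast), -0.38 (adipocyte, 2 genes) and -0.15 (skeletal muscle), against -0.31 in the set. It was -0.10 for endothelial, -0.09 for leukocyte, -0.01 for neuron and Schwann cell and 0.12 for liver markers. The part of the content of these cell types in the results on glucose genes was not tested.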

How the data were processed

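The deposited intensities are processed spot signals that, per the file headers, Agilent Feature Extraction 10.7.3.1 made with spatial and multiplicative detrending switched on; positions are on build mm9. The deposited value table equalled these intensities for all 44397 values on each array, so it is linear, uncentred and unscaled, with medians of 57.6 to 75.2. Spots marked as outliers (112 to 141 per array) were left out. Levels were log2 of the signal minus the array's 75th percentile; spots of a probe were averaged, and a gene took its brightest probe among those well above background on all 4 arrays. Of the probes, 26055 were matched by accession to RefSeq (GRCm38.p6), 3358 of them renamed, and 13374 kept the files' names; all 58 probes of the set matched. That build served for names and promoters only, so exon or UTR annotation of the mm9 probe positions was not used here.

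With 1 array per group no test was run; 1.5-fold took the place of a call, with 2-fold as an alternative. Other alternatives were normexp correction (offset 50) and quantile normalization (limma 3.58.1 in R 4.3.3), median centring, 2 other filters on dim probes, the mean of probes and the deposited value table. The calculation (pandas 2.3.3, Python 3.11.15) was tested on simulated data. The members and lists were chosen with earlier results of these data known. Every gene of the set could be named, with values on all arrays for those past 1.5-fold with EPS or in the difference of EPS effects, the brightest isoenzyme of main steps and others a sentence turns on; from each other list up to 4 genes with the largest EPS difference could be named.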

Additional observations from a re-analysis of the deposited data

Results flagged for a closer look

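Pfkl, the liver-type phosphofructokinase, was past the spot error in opposite directions at the 2 times, at -0.34 with EPS at 5 h and 0.39 with EPS at 0 min, so that the EPS effect at 5 h minus that at 0 min was -0.73. The samples of each time are 1 stimulated and 1 unstimulated array, and the difference was not tested.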

How the results depend on the processing

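No paired analysis was possible because each group holds 1 array. No median of the 37 genes and no value past 1.5-fold changed sign under the alternatives run, all of which scale the arrays to each other. Quantile normalization changed the median of the 37 genes to 0.047 for EPS at 0 min and to -0.29 for 5 h against 0 min after EPS. It left 0 genes at least 1.5-fold higher with EPS at 0 min and 1 higher at 5 h without EPS, and added Slc16a3 to the genes lower there, while median centring added Pgam2 to those lower at 5 h after EPS. Under normexp, 0 genes were higher and 0 lower past 1.5-fold with EPS at 0 min, and 1 was lower at 5 h without EPS. With no filter on dim probes Fbp2 was counted, which gave 1 gene higher with EPS at 5 h, 2 higher at 5 h after EPS and 1 higher in the difference of EPS effects. At 2-fold the counts were 0 lower with EPS at 5 h, 0 higher and 0 lower with EPS at 0 min, 0 higher and 3 lower at 5 h after EPS, 1 higher and 1 lower at 5 h without EPS, and 0 lower in the difference of EPS effects. Of 185 differences of single genes, 58 moved by more than the median spot SD of a difference (0.08, or 0.12 for the difference of effects) under quantile normalization, 20 under normexp and 7 with the mean of probes. With no filter the median of all genes shifted by -0.15 for 5 h against 0 min without EPS. Dim probes (Slc2a3, Pygl, Pfkfb1, Slc16a1, Phkg1) are limited by signal over background, and the cause of these changes was not tested beyond the construction of each setting.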
